A study of Mus musculus with 16 samples.

Results

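The immediate early genes Fos, Fosb, Jun, Junb, Jund, Atf3, Egr1, Ier2, Ier3 and Dusp1 were followed across 8 groups of mouse fetal liver arrays. The 10 genes were taken by symbol from the probe sets paired with exactly 1 of these symbols, out of 16258 test units in all. Each symbol had 1 probe set, and all 10 genes passed the filter on low signal. In wild type liver, 9 of the 10 genes were lower at embryonic day 14.5 (E14.5) than at E12.5, against 6.75% of all test units (the call of Ier2 was lost without either wild type array labelled male). In livers carrying GATA1s, a short form of the transcription factor GATA1, this difference was smaller for 5 of them, of which only Fosb and Jun passed without 1 of the E12.5 GATA1s arrays (the one labelled male) and only Fosb without 3 arrays whose sex markers oppose their label. Of all test units, 1.6% had a stage difference called higher with GATA1s than without it. At E14.5 Fosb was 9.92-fold and Jun 5.56-fold higher in GATA1s than in wild type liver.

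Immediate early genes are transcribed within minutes of a stimulus from factors already present in the cell, without new protein synthesis. Fos and Jun family proteins pair through leucine zippers to form AP-1, a transcription factor that Atf3 can also join. In blood formation these genes are known for responses to growth factors, cytokines and stress, and Dusp1 and Atf3 also take part in limiting the signals that induce them.

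Embryos were dissected from timed matings and genotyped by PCR, and total RNA of liver cell suspensions was hybridised to 16 arrays. Wild type (WT) embryos, embryos with an ERG transgene (ERG), embryos with the GATA1s knock-in (GATA1s, titled WT/GATA1s in the labels) and embryos with both (ERG/GATA1s) were each sampled at E12.5 and E14.5. ERG is an ETS family factor active in blood stem cells and the megakaryocyte lineage, and GATA1s lacks the amino-terminal activation domain of GATA1. Each of the 8 groups held 2 arrays, 1 labelled female and 1 labelled male. The promoter of the ERG transgene, the number of livers per array and the number of GATA1s copies in females are not stated by the labels; Gata1 lies on the X chromosome, so a carrier female could keep a wild type copy. Nothing in the labels says whether the 2 arrays of a group came from separate litters, so the p-values measure the spread between these arrays, which may be technical.

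The deposited values are log2 signal, so a difference of 1 is a 2-fold change. Array medians lay between 4.79 and 4.94, values correlated at 0.985 to 0.997 within groups, and no pair of arrays was identical. Values under 3.74, the 30th percentile of all values, were treated as dim; the 10 genes were above this level on all 16 arrays. The tissue label was checked with erythroid markers (for Alas2 the median signal was 10.7) and hepatocyte markers (for Alb it was 11.95), which were bright on all 16 arrays. Sex markers opposed the label on 3 arrays: Xist was high and Y-linked signal low on the E12.5 GATA1s and E12.5 ERG/GATA1s arrays labelled male, and the reverse held for the female-labelled array of E14.5 ERG/GATA1s. Results that rest on these groups are therefore also given without these 3 arrays. On 3 further arrays labelled male both kinds of marker were raised: Xist was 9.35 and mean Y-linked signal 4.95 in E12.5 WT, 5.73 and 5.61 in E12.5 ERG, and 10.03 and 5.27 in E14.5 ERG. The E14.5 WT male, in comparison, had 3.94 and 6.18.

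The promoters of 5 of the genes are shown. Each holds letters of, or close to, the cyclic AMP response element (CRE, TGACGTCA), a site bound by ATF and AP-1 family dimers. The Junb promoter also holds such letters and is not printed. RefSeq promoter sequences (GRCm38.p6) were matched for 8 of the 10 genes, and the 250 bases before each start are printed 5′ to 3′ on the gene's strand. Capitals mark the CRE and its half-site TGACG on either strand, the related TGACATCA and the TATA box letters TATAAA. The windows are chr12:85473640-85473889 (plus strand) for Fos, chr7:19310046-19310295 (minus) for Fosb, chr4:95052223-95052472 (minus) for Jun, chr1:191183334-191183583 (minus) for Atf3 and chr17:26508473-26508722 (minus) for Dusp1.
Fos: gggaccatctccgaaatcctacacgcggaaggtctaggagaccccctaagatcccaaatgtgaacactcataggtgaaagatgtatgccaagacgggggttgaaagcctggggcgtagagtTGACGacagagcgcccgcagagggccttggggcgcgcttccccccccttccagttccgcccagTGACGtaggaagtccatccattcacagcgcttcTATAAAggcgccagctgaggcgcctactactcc
Fosb: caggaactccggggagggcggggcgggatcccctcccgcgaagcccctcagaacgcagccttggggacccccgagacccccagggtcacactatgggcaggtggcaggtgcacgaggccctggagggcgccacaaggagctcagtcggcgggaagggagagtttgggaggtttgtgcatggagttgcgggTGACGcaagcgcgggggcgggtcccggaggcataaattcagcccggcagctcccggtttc
Jun: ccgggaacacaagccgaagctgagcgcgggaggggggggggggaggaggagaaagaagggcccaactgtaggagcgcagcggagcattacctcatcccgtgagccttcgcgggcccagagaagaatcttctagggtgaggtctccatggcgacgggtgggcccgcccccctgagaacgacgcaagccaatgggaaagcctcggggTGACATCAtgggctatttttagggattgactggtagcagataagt
Atf3: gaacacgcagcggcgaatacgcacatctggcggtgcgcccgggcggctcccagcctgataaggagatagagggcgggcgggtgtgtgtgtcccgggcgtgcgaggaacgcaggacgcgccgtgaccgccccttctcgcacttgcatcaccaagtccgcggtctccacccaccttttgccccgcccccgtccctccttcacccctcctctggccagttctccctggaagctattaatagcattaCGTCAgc
Dusp1: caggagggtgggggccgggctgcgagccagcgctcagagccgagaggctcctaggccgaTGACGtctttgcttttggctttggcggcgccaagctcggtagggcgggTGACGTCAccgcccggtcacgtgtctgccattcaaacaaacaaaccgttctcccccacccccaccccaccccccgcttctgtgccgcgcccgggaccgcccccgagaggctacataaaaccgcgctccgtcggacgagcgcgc

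The half-site TGACG was found on either strand in 5 of the 8 promoters, those of Fos, Fosb, Junb, Atf3 and Dusp1, and in 17.8% of all 32851 promoters of the same length. The full CRE, which holds the half-site on both strands, was found in the Dusp1 window and in 1.55% of all promoters. The Jun window held TGACATCA, as did 2.93% of all promoters. TGACTCA, the preferred AP-1 site, and the CArG box, the site of serum response factor, were in none of the 8 windows and in 4.46% and 1.47% of all promoters. The erythroid GATA factor motif was searched as AGATAA, found in the Jun window and 9.99% of all promoters, and as TGATAA, found in the Atf3 window and 7.94% of all promoters. TATAAA was found in the Fos window and in 12.4% of all promoters. These matches describe the sequence in this window only.

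**Figure D1:**
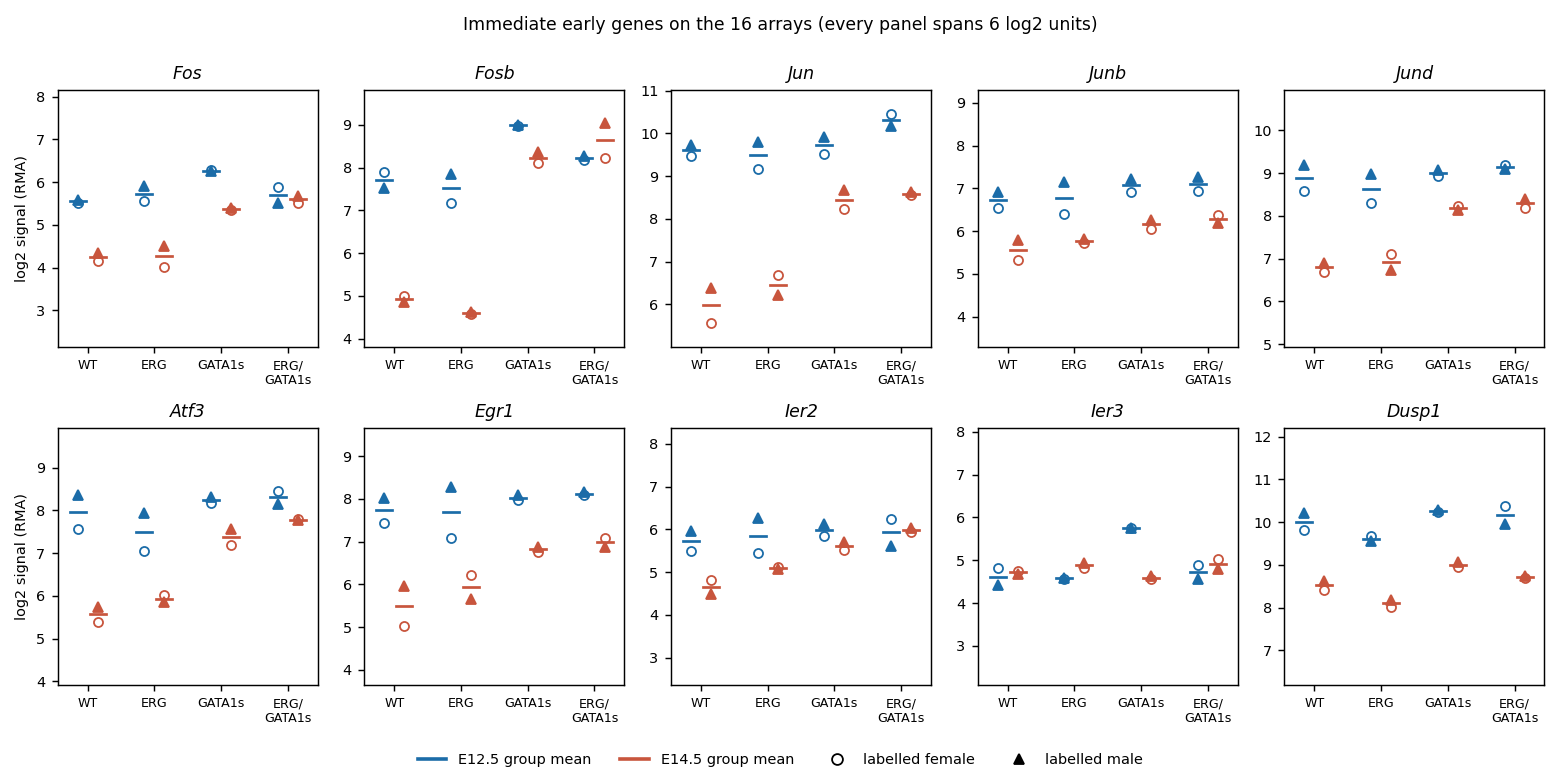
Log2 signal (vertical axis, 6 log2 units in every panel) of the 10 genes on each of the 16 arrays by genotype (horizontal axis). Blue is E12.5 and red E14.5, lines are group means of 2 arrays, open circles are arrays labelled female and triangles arrays labelled male. For Fosb, WT and ERG arrays lie between 4.57 and 4.99 at E14.5, while GATA1s and ERG/GATA1s arrays lie between 8.10 and 9.05.

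The Fos family member Fosb, a partner of Jun proteins, moved most with the GATA1s allele at E14.5. On the WT arrays labelled female and male, in that order here and for every pair of values that follows, Fosb signal was 7.90 and 7.52 at E12.5 against 4.99 and 4.85 at E14.5. In ERG livers it was 7.17 and 7.85 at E12.5 against 4.57 and 4.62 at E14.5. The E14.5 arrays of both genotypes were all lower than the E12.5 arrays, with no overlap. In GATA1s livers it was 8.98 and 8.99 at E12.5 against 8.10 and 8.36 at E14.5, and in ERG/GATA1s livers 8.17 and 8.28 at E12.5 against 8.23 and 9.05 at E14.5. All 8 carrier arrays were thus above all 8 arrays without GATA1s at either stage, and the stages overlapped in ERG/GATA1s.

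Fos, the rapidly induced partner of Jun proteins in AP-1, fell with stage in both genotypes without GATA1s. Fos signal was 5.52 and 5.59 at E12.5 against 4.15 and 4.34 at E14.5 in WT, and 5.55 and 5.91 at E12.5 against 4.01 and 4.51 at E14.5 in ERG. In GATA1s it was 6.29 and 6.25 at E12.5 against 5.34 and 5.40 at E14.5. In ERG/GATA1s it was 5.88 and 5.51 at E12.5 against 5.52 and 5.68 at E14.5. The lowest carrier array at E14.5 was 0.83 above the highest array without GATA1s, and in ERG/GATA1s the stages overlapped.

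Jun, the AP-1 subunit that can pair with itself or with Fos proteins, had the largest fall with stage in WT. Jun signal was 9.48 and 9.73 at E12.5 against 5.56 and 6.39 at E14.5 in WT, and 9.17 and 9.80 at E12.5 against 6.68 and 6.23 at E14.5 in ERG. It was 9.52 and 9.92 at E12.5 against 8.22 and 8.68 at E14.5 in GATA1s. In ERG/GATA1s it was 10.46 and 10.17 at E12.5 against 8.56 and 8.62 at E14.5. Carrier arrays at E14.5 lay at least 1.54 above the arrays without GATA1s and below every E12.5 array.

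Junb and Jund, Jun relatives often linked to slower growth, ranged over fewer log2 units than Jun. Jund signal was 8.57 and 9.18 at E12.5 against 6.69 and 6.90 at E14.5 in WT, and 8.30 and 8.97 at E12.5 against 7.10 and 6.74 at E14.5 in ERG. It was 8.94 and 9.08 at E12.5 against 8.24 and 8.13 at E14.5 in GATA1s, and 9.19 and 9.09 at E12.5 against 8.19 and 8.40 at E14.5 in ERG/GATA1s. For Jund the gap between carriers and other arrays at E14.5 was 1.03. Junb signal was 6.40 to 7.14 on the 4 E12.5 arrays without GATA1s and 5.32 to 5.82 on the 4 at E14.5. On carrier arrays it was 6.92 to 7.27 at E12.5 and 6.05 to 6.37 at E14.5, a gap of 0.23 to the other arrays of that stage.

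Atf3, a stress-induced factor of the same leucine zipper class that often acts as a repressor, also fell with stage in WT and ERG. Atf3 signal was 7.57 and 8.35 at E12.5 against 5.40 and 5.75 at E14.5 in WT, and 7.06 and 7.93 at E12.5 against 6.02 and 5.85 at E14.5 in ERG. It was 8.17 and 8.32 at E12.5 against 7.20 and 7.57 at E14.5 in GATA1s, and 8.45 and 8.16 at E12.5 against 7.80 and 7.77 at E14.5 in ERG/GATA1s. The groups with and without GATA1s did not overlap at E14.5. Egr1, a zinc finger factor induced through serum response factor, was 7.09 to 8.28 at E12.5 and 5.03 to 6.21 at E14.5 without GATA1s, and 7.97 to 8.15 at E12.5 and 6.76 to 7.09 at E14.5 with it. Its arrays without GATA1s were the more spread, with an SD of 0.545 at E12.5 and 0.509 at E14.5 (n = 4) against 0.0762 and 0.137 with it (n = 4).

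Ier2, a nuclear protein induced by growth factors, was 5.44 to 6.26 at E12.5 and 4.48 to 5.12 at E14.5 without GATA1s. On carrier arrays it was 5.62 to 6.24 at E12.5 and 5.53 to 6.04 at E14.5, so the stages overlapped there. Dusp1, the phosphatase that switches off MAP kinases, was 9.55 to 10.21 at E12.5 and 8.02 to 8.63 at E14.5 without GATA1s, and 9.95 to 10.38 at E12.5 and 8.70 to 9.06 at E14.5 with it. Its gap between carriers and others at E14.5 was 0.07. Ier3, a stress-induced regulator of cell survival, had another pattern. Ier3 signal was 5.76 in both E12.5 GATA1s arrays and 4.42 to 5.04 on the other 14 arrays.

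Counted over arrays, all 4 carrier arrays at E14.5 lay above all 4 non-carrier arrays for 9 of the 10 genes, as they did for 5.86% of all test units. The exception was Ier3. At E12.5 this held for Fosb alone (4.98% of all test units). Within non-carriers all E14.5 arrays lay below all E12.5 arrays for the same 9 genes (13.7% of all test units). Within carriers this held for 6 genes (18.3% of all test units), Fos, Fosb, Ier2 and Ier3 being the exceptions.

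The stage comparison asks how liver at E14.5 differs from liver at E12.5 within each genotype. In WT, 9 of the 10 genes fell, against 6.75% of all test units lower and 11.4% higher, and their median difference was -1.78 where that of all test units was -0.0050. Jun fell by 3.63 (SE 0.249, adjusted p = 5.2e-06), a 12.4-fold decrease. Fosb fell by 2.79 (SE 0.232, adjusted p = 2.2e-05) and Atf3 fell by 2.38 (SE 0.241, adjusted p = 7.3e-05). Egr1, Jund, Dusp1, Fos and Junb fell by 2.23, 2.08, 1.49, 1.31 and 1.17. Ier2 fell by 1.07 (adjusted p = 0.0107), a call lost without the E12.5 or the E14.5 WT male, with an adjusted p of up to 0.147. Ier3 differed by 0.10 (SE 0.15, adjusted p = 0.71). In each of the 9 falling genes, both the female and the male pair of arrays showed the fall. In a fit restricted to the 4 arrays being compared, no test unit passed here, nor in the stage comparison in ERG, in GATA1s against WT at either stage, or in ERG/GATA1s against WT or ERG at E14.5.

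In ERG livers 8 of the 10 genes fell, against 4.88% of all test units. Jun fell by 3.03 (SE 0.249), Fosb fell by 2.92 (SE 0.232) and Egr1 fell by 1.75 (SE 0.316), and Jund, Atf3, Dusp1, Fos and Junb by 1.0 to 1.72. Ier2 differed by -0.75 (adjusted p = 0.0567) and Ier3 by 0.30 (adjusted p = 0.18). WT and ERG livers thus each showed most of these genes lower at the later stage. The median over the 10 genes was -1.53 in ERG.

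In GATA1s livers 9 of the 10 genes fell, against 8.67% of all test units, but the median was -0.91. Jun fell by 1.27 (SE 0.249, adjusted p = 0.0024), Dusp1 by 1.26 (SE 0.167, adjusted p = 0.00011) and Ier3 by 1.17 (SE 0.15, adjusted p = 8.3e-05). Fosb fell by 0.75 (SE 0.232, adjusted p = 0.0318) and Fos by 0.90 (SE 0.173, adjusted p = 0.0021). Ier2 differed by -0.36 (adjusted p = 0.32). The falls of Fosb, Jund, Atf3 and Egr1 lost their call when one of the 4 GATA1s arrays was left out, with adjusted p up to 0.219, 0.134, 0.145 and 0.124. For Fosb and Atf3 each of the 4 arrays had this effect, and for Jund and Egr1 both E12.5 arrays and the E14.5 male. Without the 3 arrays with opposed sex markers, 6 of the members passed and Fosb was at -0.80 (adjusted p = 0.0751).

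In ERG/GATA1s livers 5 of the 10 genes fell, against 7.89% of all test units. Jun fell by 1.73 (SE 0.249, adjusted p = 0.00043), Dusp1 by 1.44 (SE 0.167), Egr1 by 1.14 (SE 0.316), and Jund and Junb by 0.84 and 0.82. Fos differed by -0.09 (SE 0.173, adjusted p = 0.70) and Fosb by 0.41 (SE 0.232, adjusted p = 0.199). Jun, Dusp1, Egr1, Jund and Junb were therefore called lower in all 4 genotypes, with Dusp1 lower by 1.26 to 1.5. Without the 3 arrays 2 of the members passed, Jun at -2.18 (adjusted p = 0.039) and Dusp1 at -1.78 (adjusted p = 0.0161). Junb lost its call without the E14.5 ERG/GATA1s male (adjusted p = 0.12), Jund without that array, the female or the E12.5 female (up to 0.078), and Egr1 without that array or either E12.5 array (up to 0.215). Without the E14.5 male 2 of the members passed.

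**Figure D2:**
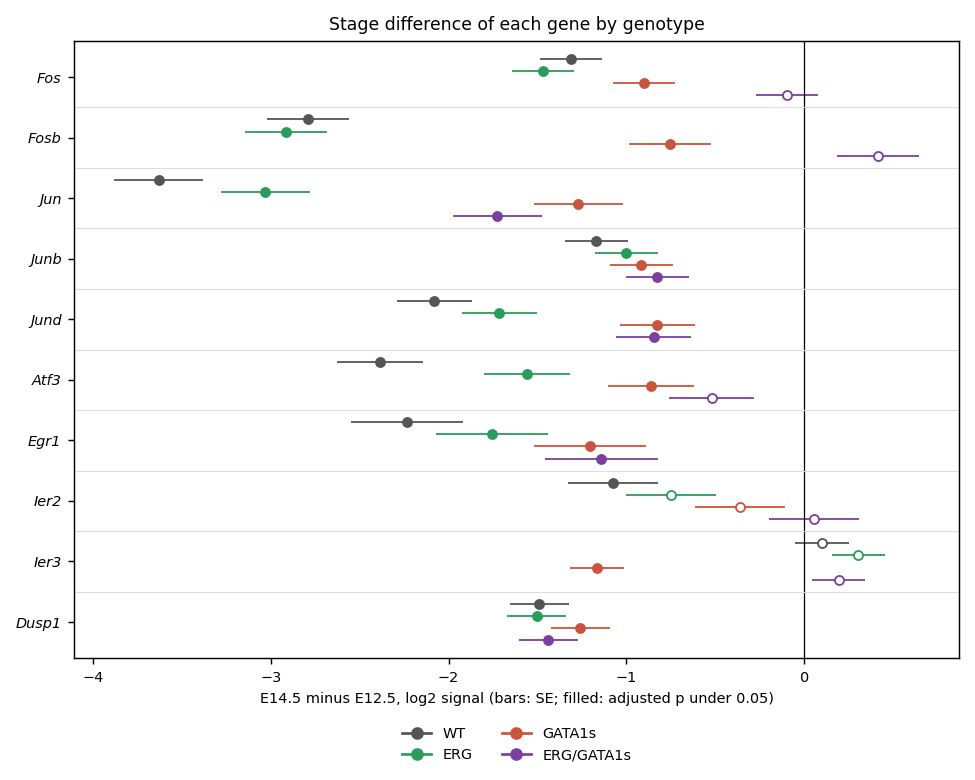
Difference in log2 signal between E14.5 and E12.5 (horizontal axis) for each gene in the 4 genotypes, with bars of 1 SE from the limma fit and filled points where the adjusted p was under 0.05. WT and ERG points lie far to the left for Fosb (-2.79 and -2.92) and Jun (-3.63 and -3.03), whereas the Dusp1 points of the 4 genotypes lie between -1.5 and -1.26.

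The term for stage by GATA1s asks whether the stage difference of carriers differed from that of non-carriers, with each pair of genotypes averaged. It was past the threshold for 6 of the 10 genes, 5 of them higher in carriers, against 1.6% of all test units. Fosb had the largest term, 2.68 (SE 0.232, adjusted p = 0.00029). Jun followed with 1.83 (SE 0.249, adjusted p = 0.0025), Atf3 with 1.28 (SE 0.241, adjusted p = 0.0142), Jund with 1.06 (SE 0.211, adjusted p = 0.0198) and Fos with 0.89 (SE 0.173, adjusted p = 0.0175). A positive term means a smaller fall, or none, in carriers. Ier3 had a negative term of -0.69 (SE 0.15, adjusted p = 0.0312), against 0.64% of all test units lower.

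For Junb, Egr1, Ier2 and Dusp1 the terms were 0.21, 0.82, 0.76 and 0.15, with adjusted p of 0.159 to 0.73. Fosb passed under every alternative, with its adjusted p at most 0.0217, and Jun passed without any single array. Without the 3 arrays with opposed sex markers Fosb alone of the members passed, at 2.85, with Jun at 1.62 (adjusted p = 0.191), Atf3 at 0.91, Jund at 0.97 and Fos at 0.65; 3 test units passed in all. Without the E12.5 GATA1s male 2 of the members passed, Fosb and Jun. Fos also lost its call without the E12.5 WT female or the E14.5 ERG female (adjusted p up to 0.0651), Atf3 without the E12.5 GATA1s male (0.0534), and Jund and Ier3 without any of 7 and 8 single arrays (up to 0.0644 and 0.0975).

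An F test over the 3 stage by genotype terms, which asks whether a gene's genotype differences depend on stage at all, passed for 5 of the 10 genes and for 2.42% of all test units. These were Fosb (adjusted p = 0.00074), Ier3 (0.0055), Jun (0.0068), Fos (0.0246) and Atf3 (0.0290). Jund was at 0.0570, and Dusp1 and Junb at 0.90 and 0.84. Of the members 2 passed without the E12.5 GATA1s male, and none without the 3 arrays, where 6 test units passed in all. The stage by ERG term passed for Ier3 alone, at 0.78 (SE 0.15, adjusted p = 0.0198), against 0.916% of all test units higher. Ier3 lost this call without any of 6 single arrays, among them the E12.5 WT female (adjusted p up to 0.0767), and without the 3 arrays (0.65, adjusted p = 0.267).

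The comparison of GATA1s with WT at E14.5 asks how later livers with the knock-in differed from WT livers. In it 5 of the 10 genes rose, against 0.757% of all test units, and the median was 1.23 where that of all test units was -0.0150. Fosb was higher by 3.31 (SE 0.232, adjusted p = 1.0e-05), Jun by 2.48 (SE 0.249, adjusted p = 0.00023) and Atf3 by 1.81 (SE 0.241, adjusted p = 0.0022). These were 9.92-fold, 5.56-fold and 3.51-fold differences, seen in both the female and the male pair. Jund was higher by 1.39 (SE 0.211, adjusted p = 0.0057) and Fos by 1.12 (SE 0.173, adjusted p = 0.0062).

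Egr1 differed by 1.32 (SE 0.316, adjusted p = 0.0612), Ier2 by 0.97 (SE 0.254, adjusted p = 0.0871), Junb by 0.60 (SE 0.177, adjusted p = 0.127) and Dusp1 by 0.48 (SE 0.167, adjusted p = 0.193). These differences did not pass the test. Ier3 differed by -0.12 (adjusted p = 0.84). Fosb, Jun and Atf3 kept their call without any single array. Fos lost it without the E14.5 WT female or the E14.5 GATA1s male (adjusted p up to 0.0658) and Jund without the E14.5 WT female or the E14.5 GATA1s female (up to 0.0591), so that 3 of the members passed without the WT female. Leaving out the 3 arrays with opposed sex markers, which these groups do not hold but which enter the shared spread, left 4 of the members called and Jund not (1.39, adjusted p = 0.0555).

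On the ERG background livers with and without the GATA1s allele differed in a like way at E14.5. In ERG/GATA1s against ERG, 6 of the 10 genes rose, against 3.6% of all test units. Fosb was higher by 4.04 (SE 0.232, adjusted p = 1.5e-06), a 16.5-fold difference. Jun was higher by 2.13, Atf3 by 1.85, Jund by 1.38 and Fos by 1.34, and Dusp1 by 0.62 (SE 0.167, adjusted p = 0.0379). Ier2 and Egr1 differed by 0.88 and 1.05 (adjusted p = 0.0504 and 0.061). When the 3 arrays were left out 4 of the members passed, with Fosb at 4.41, Jun at 1.99, Atf3 at 1.61 and Fos at 1.30, Jund at 1.38 (adjusted p = 0.0618) and Dusp1 at 0.57 (0.14). Dusp1 also lost its call without any of 6 single arrays, among them both E14.5 ERG arrays (adjusted p up to 0.251).

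Against WT, ERG/GATA1s livers at E14.5 had 8 of the 10 genes higher, against 4.47% of all test units higher and 4.69% lower. Fosb was higher by 3.72 (SE 0.232), Jun by 2.62 (SE 0.249), Atf3 by 2.21 (SE 0.241), and Jund, Egr1, Fos and Ier2 by 1.5, 1.49, 1.35 and 1.33. Junb was higher by 0.72 (SE 0.177, adjusted p = 0.0206). Ier3 and Dusp1 differed by 0.20 each (adjusted p = 0.53 and 0.60). Junb and Egr1 lost their call without the E14.5 WT female or the E14.5 ERG/GATA1s female (adjusted p up to 0.329 and 0.134). Without the 3 arrays 5 of the members passed, with Fosb at 4.08, and Ier2, Egr1 and Junb at 1.28, 1.16 and 0.44 did not pass. This comparison and that of GATA1s share the WT arrays.

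The ERG transgene alone was not accompanied by called differences in these genes. At E12.5 the 10 genes differed between ERG and WT by -0.47 to 0.18, and none passed in limma, nor did any test unit (0%); at an unadjusted p under 0.05 the count was 1 gene of the 10 and 666 of all. At E14.5 they differed by -0.42 to 0.48 and none passed, against 1.19% of all test units higher. At an unadjusted p under 0.05 the count was 1 gene of the 10 and 1554 of all. The term for ERG by GATA1s at E14.5, which asks whether the GATA1s difference depended on ERG, passed for none of them and for 0.0984% of all test units; 1 of the 10 and 799 of all had an unadjusted p under 0.05. For Fosb this term was 0.73 (SE 0.328, unadjusted p = 0.042 and adjusted p = 0.97 in limma) and for Jun -0.34 (SE 0.353).

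At E12.5 fewer of these genes were called with GATA1s, and Ier3 was one of them. In GATA1s against WT, 2 of the 10 genes rose, against 0.824% of all test units higher and 0.511% lower. Fosb was higher by 1.27 (SE 0.232, adjusted p = 0.0211) and Ier3 by 1.15 (SE 0.15, adjusted p = 0.0065). Fos differed by 0.71 (SE 0.173, adjusted p = 0.0581), and the other 7 genes by 0.11 to 0.35. Both calls were lost without the E12.5 WT male or either E12.5 GATA1s array (adjusted p up to 0.338 for Fosb and 0.137 for Ier3) and without the 3 arrays, where the values were 1.32 and 1.12 (adjusted p = 0.173 for both) and none of the members passed.

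In ERG/GATA1s at E12.5 none of the 10 genes passed against WT (0% of all test units higher; 2 of the 10 and 2564 of all at an unadjusted p under 0.05) or against ERG (0.474% of all test units; 5 of the 10 and 2484 of all unadjusted). Ier3 was at 4.90 and 4.55 in ERG/GATA1s, compared with 5.76 in both GATA1s arrays. Against ERG, Jun differed by 0.83 (SE 0.249, adjusted p = 0.116), Atf3 by 0.81 (SE 0.241, adjusted p = 0.112) and Fosb by 0.71 (SE 0.232, adjusted p = 0.142). In the fit of the compared arrays alone 1 and 3 of the members passed in these comparisons. The share of all test units passing there is not given, so these counts cannot be set against it.

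**Figure D3:**
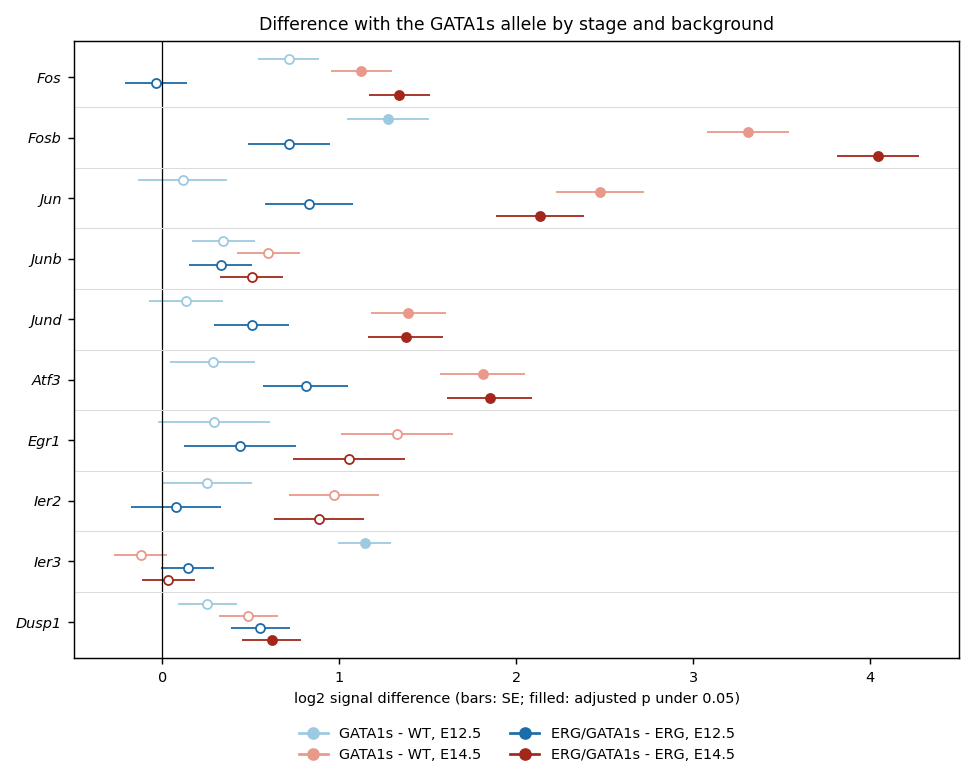
Difference in log2 signal with the GATA1s allele (horizontal axis) for each gene at E12.5 (blue) and E14.5 (red), light against WT and dark on the ERG background, with bars of 1 SE from the limma fit and filled points where the adjusted p was under 0.05. The E14.5 points of Fosb lie at 3.31 and 4.04 and its E12.5 points at 1.27 and 0.71.

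Over the 16 arrays 9 of the genes varied together. The Pearson correlation of each with the mean of the other 9 ranged from 0.855 for Dusp1 to 0.982 for Jund, and was 0.241 for Ier3. Jun and Jund were the closest pair, at 0.983. These values describe 16 arrays that share stage and genotype differences and carry no test. The 10 most similar other genes, ranked by correlation with the members' mean over 16 arrays among 15732 genes, were Ccl3, Rgs1, Kdm6b, Nfkbia, Zyx, Tnfaip3, Gab2, Mrtfa, Btg1 and Pdzk1ip1, at 0.960 to 0.982.

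Ccl3, a chemokine of myeloid cells, led this ranking. Ccl3 signal was 8.93 to 9.63 on E12.5 and 5.14 to 6.42 on E14.5 arrays without GATA1s, and 9.82 to 10.33 and 8.33 to 8.95 on carrier arrays. Rgs1, a regulator of G protein signalling, was at 2.95 to 3.15 on E14.5 arrays without GATA1s, below the dim level, and at 4.99 to 5.61 on carrier arrays of that stage. Pdzk1ip1, a small membrane protein, was at 6.49 to 6.68 and 7.75 to 8.24 on the same arrays, and Zyx, an actin-binding adaptor, at 6.87 to 7.5 and 7.82 to 8.27. These 10 genes were chosen for following the members on these arrays, so their levels are a description with no test.

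Other early response genes were read as lists, chosen with earlier results of these data known. Of 24 other immediate early effectors, 10 fell and 1 rose with stage in WT, against 6.75% and 11.4% of all test units, with a median of -0.54. Nfkbia, the inhibitor of NF-kappaB, fell by 2.21 (SE 0.295), Zfp36, which destabilises messenger RNAs, by 1.57 (SE 0.231), Tnfaip3, an NF-kappaB brake, by 1.18 (SE 0.185) and Btg1, an antiproliferative protein, by 1.03 (SE 0.160). In GATA1s against WT at E14.5, 4 of the 24 rose and none fell, against 0.757% of all test units higher, with a median of 0.41. These were Nfkbia (1.76, adjusted p = 0.0105), Btg1 (0.82, adjusted p = 0.0241), Zfp36 (1.08, adjusted p = 0.0390) and Trib1, a pseudokinase (0.68, adjusted p = 0.0492). Without the E14.5 WT female none of these 4 passed. In ERG/GATA1s against WT at E14.5, 13 of the 24 rose and 1 fell, against 4.47% and 4.69% of all test units. With stage in GATA1s, 7 of the 24 fell and none rose, against 8.67% of all test units lower. The stage by GATA1s term was higher for 1 of the 24 and lower for none (median 0.034), against 1.6% of all test units higher.

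Of 20 other immediate early transcription factors, 8 fell and none rose with stage in WT (median -0.38; 6.75% of all test units fell). Nr4a1, an orphan nuclear receptor, fell by 1.59 (SE 0.207), Klf10, a Kruppel-like factor, by 0.97 (SE 0.167), Csrnp1 by 0.94 (SE 0.137) and Srf, serum response factor itself, by 0.94 (SE 0.149). In GATA1s against WT at E14.5 Nr4a1 alone of the 20 rose, by 1.06 (SE 0.207, adjusted p = 0.0241), a call lost without the E14.5 WT female or the E14.5 GATA1s male (adjusted p up to 0.229). The list median was 0.23, and it was 0.29 at E12.5, where 3 of the 20 rose (0.824% of all test units). At E14.5 7 of the 20 rose in ERG/GATA1s against WT (4.47% of all test units). Against ERG at that stage 3 rose and 1 fell, where 586 of 16258 test units rose and 608 fell. With stage in GATA1s 9 of the 20 fell and none rose, against 8.67% of all test units lower. The stage by GATA1s term passed for none of the 20 (median -0.025), against 1.6% of all test units higher.

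The AP-1 and bZIP relatives, which pair with or resemble Fos and Jun, showed calls in both directions. Of 21 tested, 3 fell and 1 rose with stage in WT (median -0.08), against 6.75% and 11.4% of all test units, and none was called in GATA1s against WT at E14.5 (median 0.09). At E14.5 3 rose and none fell in ERG/GATA1s against WT, where 4.47% of all test units rose. Against ERG at that stage 3 rose and 1 fell, where 586 of 16258 test units rose and 608 fell. With stage in ERG/GATA1s 4 rose and 3 fell, where 2283 of 16258 test units rose and 1283 fell. The stage by GATA1s term passed for none of the 21 (median 0.035), against 1.6% of all test units higher. With stage in WT, Fosl1, a Fos relative, fell by 0.91 (SE 0.167, adjusted p = 0.0027). This call was kept without any single array. Cebpb and Atf4 fell by 0.67 and 0.46 and Nfe2, the erythroid and megakaryocyte bZIP factor, rose by 0.59; each lost its call without the E14.5 WT female (adjusted p up to 0.126, 0.282 and 0.106 over the arrays left out).

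Of 14 MAP kinase phosphatases and feedback inhibitors, 4 fell and 1 rose with stage in WT (median -0.45; 6.75% of all test units fell). Dusp5, a nuclear phosphatase of ERK, fell by 1.11 (SE 0.161, adjusted p = 0.00066), a call kept without any single array. Spred2 and Dusp7 fell by 0.78 and 0.78 and Spred1 rose by 0.57; all 3 lost their call without the E12.5 WT male (adjusted p up to 0.0528, 0.229 and 0.180). Dusp16, a phosphatase of JNK, was higher in GATA1s than in WT at E14.5 by 1.05 (adjusted p = 0.0438, up to 0.234 without single arrays). In ERG/GATA1s at E14.5, 6 of the 14 rose against WT and 2 against ERG (4.47% and 3.6% of all test units). With stage in GATA1s 6 of the 14 fell and none rose, against 8.67% of all test units lower. The stage by GATA1s term passed for none of the 14 (median 0.046), against 1.6% of all test units higher. The MAP kinases and serum response pathway, of which 17 of 22 genes were tested, had 3 genes lower with stage in WT. None was called in GATA1s at E14.5 (medians 0.08 and -0.0150). Srf fell as given above, Mrtfa, its coactivator, by 0.51, and Elk1, its ternary complex partner, by 0.48; the calls of Mrtfa and Elk1 were lost without single arrays, the E12.5 WT male among them (adjusted p up to 0.214 and 0.459).

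Heat shock genes, another group that responds quickly to stress, were measured beside these lists. Of 11 tested of 14, 2 rose with stage in WT, against 11.4% of all test units, and none fell; the 2 were the mitochondrial chaperones Hspe1 (0.57) and Hspd1 (0.50), and both calls were lost without the E12.5 WT male (adjusted p up to 0.0989 and 0.316). None was called in GATA1s against WT at E14.5, where the median was -0.34. The mean heat shock signal was 8.68 to 9.22 on non-carrier and 8.78 to 9.01 on carrier arrays at E14.5, and 8.97 to 9.08 and 9.08 to 9.36 at E12.5.

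Markers of other liver cells were measured beside these genes. Megakaryocyte markers were higher with GATA1s for 4 of 7 tested at E14.5 (median 1.04) and for 6 of 7 at E12.5 (median 1.26). They were higher for 6 of 7 in ERG/GATA1s against ERG at E14.5. In these comparisons 0.757%, 0.824% and 3.6% of all test units were higher. Their mean signal was 7.38 to 7.68 on non-carrier and 8.26 to 8.98 on carrier arrays at E14.5, and 7.52 to 8.05 and 8.40 to 9.0 at E12.5. All 7 were above the dim level on 16 arrays, and their part in the differences of the immediate early genes was not tested. Between stages in WT the megakaryocyte list had 1 of 7 lower and none higher (median -0.14), while the immediate early genes had 9 of 10 lower. Of all test units 6.75% were lower. In bulk liver, fewer cells of a type and less RNA per cell cannot be told apart.

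Macrophage markers were higher at E14.5 in WT for 7 of 8 tested and hepatocyte markers for 9 of 9, against 11.4% of all test units. This was the opposite direction to the immediate early genes. Granulocyte and monocyte markers had 2 of 9 lower and 1 higher with stage in WT (median -0.445). In ERG 8 of 9 were lower and 1 higher, and in GATA1s 6 were lower and 1 higher. In ERG/GATA1s 2 were lower and 2 higher. Of all test units 6.75%, 4.88%, 8.67% and 7.89% were lower in these comparisons. The granulocyte and monocyte mean correlated with that of the members at 0.656 over 16 arrays, without a test. The macrophage mean was 5.63 to 5.65 in E12.5 WT and 6.47 to 6.71 in E14.5 WT. No macrophage or hepatocyte marker was called in GATA1s against WT at E14.5. Hepatocyte markers were lower in GATA1s than in WT at E12.5 for 6 of 9 tested (0.511% of all test units). The stage by GATA1s term was higher for 9 of 9 hepatocyte (median 1.31), 3 of 9 granulocyte and monocyte and 1 of 8 macrophage markers (1.6% of all test units). It was lower for 1 of 6 lymphoid markers (0.64% of all test units) and called for no marker of the other lists. For hepatocyte markers this was a larger rise with stage, with a median of 1.135 in WT and 2.81 in GATA1s. Granulocyte and monocyte markers were called for none of 9 in GATA1s against WT at E14.5. They were higher for 9 of 9 in ERG/GATA1s against ERG (mean 6.70 to 6.86 in ERG and 8.43 to 8.78 in ERG/GATA1s), against 3.6% of all test units. Erythroid markers were called for none of 8 in GATA1s against WT at E14.5. They were lower for 8 of 8 in ERG/GATA1s against WT (4.69% of all test units). In GATA1s against WT at E14.5 no endothelial, stellate or mast cell marker was called. There 1 of 6 lymphoid markers was lower, as were 51 of 16258 test units. On the ERG background at E14.5, 2 of 9 endothelial markers and 1 of 6 lymphoid markers were higher (3.6% of all test units). In ERG/GATA1s against WT, 3 of 9 endothelial markers were higher (4.47% of all test units). Cd163, Mcpt8, Fcer1a, Ms4a2 and Cd79a were below the dim level on all arrays. The part of these cell types in the results was not tested.

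**Figure D4:**
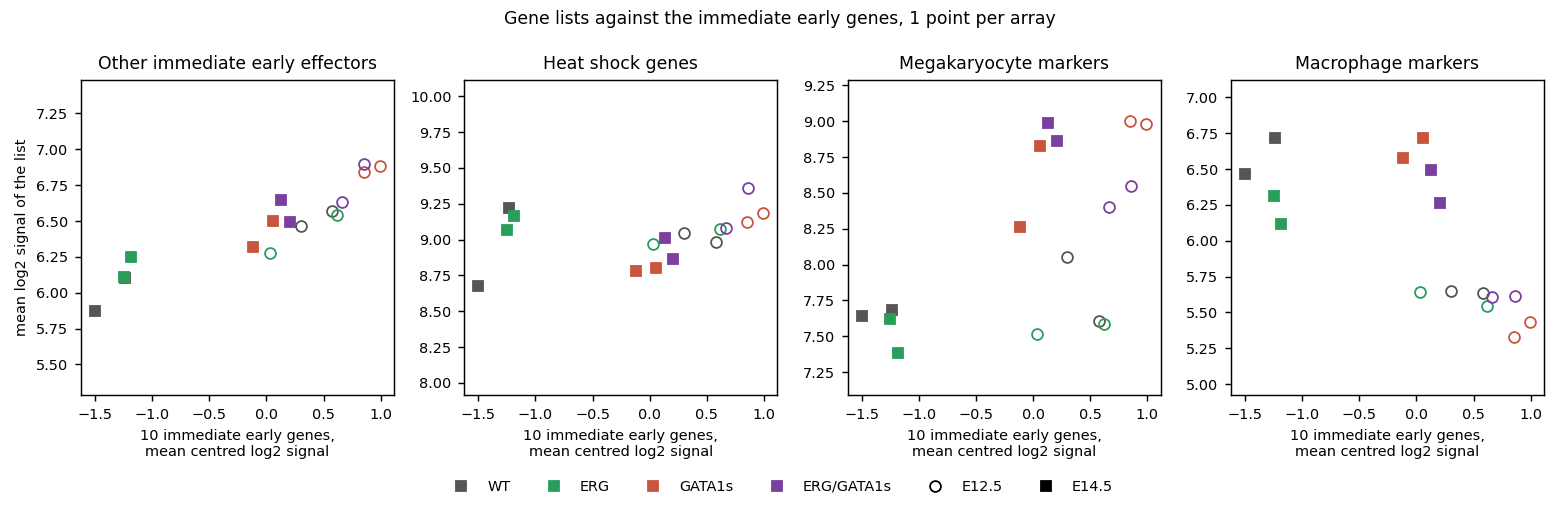
Mean log2 signal of 4 gene lists (vertical axes) against the mean centred log2 signal of the 10 immediate early genes (horizontal axis), with 1 point per array, colour for genotype, open circles for E12.5 and filled squares for E14.5. The E14.5 WT and ERG arrays sit at -1.5 to -1.18 on the horizontal axis and the E14.5 carrier arrays at -0.12 to 0.21. The other immediate early effectors rise with the genes (correlation 0.92 over 16 arrays), while the correlation is 0.28 for heat shock genes, 0.59 for megakaryocyte and -0.70 for macrophage markers.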

How the data were processed

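Total RNA of fetal liver cells was measured on 16 Affymetrix arrays. The deposited log2 values, rounded to 2 decimals, come from RMA run by the authors, which corrects background, normalizes arrays and summarises probes, per the submitters' processing notes. Its version and the genome build: not given in the sources used here. RMA and the log scale can understate differences of dim genes, and precision is limited by having 2 arrays a group.

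The 28270 probe sets were named from the platform annotation (21780 with 1 symbol, 1617 with several, 4873 with none; 21689 matched by gene identifier). Each symbol was represented by its brightest probe set. Probe sets above the 30th percentile (3.74) on at least 2 arrays gave 16258 test units. All arrays were fitted with limma 3.58.1 in R 4.3.3, with 1 mean per group and labelled sex as covariate (7 residual degrees of freedom), since 2 arrays a group give too little to estimate a spread per comparison. Two-sided moderated tests (eBayes) were adjusted by Benjamini-Hochberg over all test units, with a threshold of 0.05; the fit was tested on simulated data. Comparisons of genotypes share groups and are not independent.

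The members, the gene and marker lists and the tests were chosen with earlier results of these data known. Genes named beside the members are up to 4 per list with the smallest p among those called in E14.5 against E12.5 in WT or in GATA1s against WT at E14.5, and the 10 genes most correlated with the members' mean. Alternatives changed the filter, scaling, sex term, weights, eBayes settings, probe set rule and arrays used.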

Additional observations from a re-analysis of the deposited data

Results flagged for a closer look

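For 6 of the genes the stage difference of GATA1s carriers differed from that of non-carriers by the test of the difference itself; 2 of them passed without the E12.5 GATA1s male, and Fosb alone without the 3 arrays with opposed sex markers. The terms were 2.68 for Fosb, 1.83 for Jun, 1.28 for Atf3, 1.06 for Jund and 0.89 for Fos, and -0.69 for Ier3. Of all test units the term was called higher for 1.6% and lower for 0.64%. The stage difference of ERG carriers differed from that of the other genotypes for Ier3, by 0.78, a call lost without the 3 arrays and without any of 6 single arrays. Ier3 signal was 5.76 on both E12.5 GATA1s arrays and 4.42 to 5.04 on the other 14.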

How the results depend on the processing

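Each result was recomputed under 11 alternative settings and without each of the 16 arrays. Of 59 differences of members past the threshold, 8 kept their call under all alternatives run for them, and 28 lost it only when the fit used only the arrays of the groups compared. In that fit none of the members (and no test unit) passed in E14.5 against E12.5 in WT or ERG. The same held in GATA1s against WT at E12.5 or E14.5 and in ERG/GATA1s against WT or ERG at E14.5. In ERG/GATA1s against WT and ERG at E12.5, 1 and 3 members passed, with the share of all test units not given. Without the 3 arrays with opposed sex markers the counts of members were 2 for stage in ERG/GATA1s, 0 for GATA1s against WT at E12.5, 5 for ERG/GATA1s against WT at E14.5, 1 for the stage by GATA1s term, 0 for the stage by ERG term and 0 for the F test. With Y-linked signal in place of labelled sex they were 2 for the stage by GATA1s term and 3 for the F test. With array weights the count was 2 for stage in ERG/GATA1s. With further quantile normalization it was 1 for ERG/GATA1s against ERG at E12.5, where 447 of all test units were called. Without single arrays the counts of members ranged from 8 to 9 (stage in WT and ERG), 5 to 9 (GATA1s), 2 to 5 (ERG/GATA1s), 0 to 3 (GATA1s against WT at E12.5), 3 to 6 (at E14.5), 6 to 8 and 5 to 8 (ERG/GATA1s against WT and ERG at E14.5), 2 to 7 (stage by GATA1s), 0 to 1 (stage by ERG) and 2 to 6 (F test). Without arrays the number of all test units called also varied widely, and no share of them is given beside these counts. The smaller fits have fewer arrays by construction. Otherwise the cause was not tested.

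Only differences that were not called changed sign. For Ier2, stage in ERG/GATA1s was -0.067 with quantile normalization, -0.088 with Y-linked signal and -0.42 without the 3 arrays, and -0.36 to 0.47 without single arrays. For Ier3, ERG/GATA1s against ERG at E14.5 was -0.0016 with quantile normalization, -0.0050 with median centring, -0.061 without the 3 arrays and -0.087 to 0.16 without single arrays, and stage in ERG/GATA1s was -0.052 without the 3 arrays. The stage by GATA1s term was -0.045 for Junb with Y-linked signal and -0.05 for Dusp1 without the 3 arrays. Without single arrays, GATA1s against WT at E12.5 was -0.12 to 0.39 for Jund and -0.0157 to 0.59 for Atf3, stage in WT was -0.064 to 0.26 for Ier3, and stage in ERG/GATA1s was -0.37 to 0.18 for Fos. The labels give no replicate numbers; the fit pairs the arrays by labelled sex, and without the sex term 7 members passed in ERG/GATA1s against WT at E14.5 and 4 in the F test, with the other counts of members as in the main text.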

Other observations

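The array labelled male had the higher signal for 8, 9, 8 and 3 of the 10 immediate early genes in E12.5 WT, ERG, GATA1s and ERG/GATA1s livers. At E14.5 this held for 7, 5, 9 and 6 of the 10 genes, in the same order of genotypes. The widest such gap in Egr1 was in E12.5 ERG livers, where the values were 7.09 and 8.28. Sex markers opposed the label on the male-labelled E12.5 GATA1s and ERG/GATA1s arrays and the female-labelled E14.5 ERG/GATA1s array. Both kinds of marker were raised on the male-labelled E12.5 WT, E12.5 ERG and E14.5 ERG arrays. No share of all test units is given beside these counts. They describe the labels and give no difference between the sexes.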
